A study of Mus musculus with 25 samples.

Results

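The genes described here are 9 members of the acute phase response and of the signalling pathway that runs through the transcription factor STAT3, measured in RNA-seq of mouse pancreatic islets, of 17549 genes in the largest of 4 deposited tables. Lcn2, Lrg1, Saa3 and Timp1 were chosen for their fall with REG3B in islets labelled db. Il6ra, Osmr, Il6st, Stat3 and Socs3 were added as the receptors, the transcription factor and the feedback inhibitor of the pathway. On GRCm38.p6 Il6ra (Entrez 16194) lies on chromosome 3 from 89869324 to 89913196, Osmr (18414) on chromosome 15 from 6813568 to 6874968, Il6st (16195) on chromosome 13 from 112464070 to 112506860, and Stat3 (20848) and Socs3 (12702) on chromosome 11 from 100886806 to 100939594 and from 117966079 to 117970336. All 9 are protein coding genes. All 9 have a row in the WT, PBS and db tables, and 7 have one in the HFD table, where Saa3 and Timp1 have none. The study concerns BAF60C, a subunit of the SWI/SNF chromatin remodelling complex encoded by Smarcd3, in type 2 diabetes. Messenger RNA of whole islets was sequenced as paired ends on the BGISEQ-500. Values are FPKM, the fragments counted per kilobase of transcript relative to library size, and 19 of 25 labelled samples have them.

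The groups were as follows. The HFD table holds 2 libraries labelled flox/flox and 2 labelled BcBKO, from mice kept on a high-fat diet for 3 months. BcBKO stands for an ablation made in beta cells with Pdx1-cre, a recombinase under the promoter of a pancreas and beta cell transcription factor that is also active in the developing pancreas. The PBS table holds 2 libraries each of CTR_PBS, KO_PBS and KO_REG3B-Fc. The labels do not spell out the gene that KO refers to, and REG3B-Fc is taken here as the secreted lectin REG3B joined to an Fc tail, with PBS as the saline control. The db table holds 2 libraries each of db_GFP and db_REG3B. In mice db is the usual name of the leptin receptor mutation, which the labels do not state, and how GFP and REG3B were delivered is not given either. The WT table holds 5 libraries. Age, sex and strain are not given, and the 6 chow-fed samples were not analysed here. Each sample was a pool from at least 3 mice, so that a group of 2 is 2 pooled libraries, and p-values measure the spread between such libraries. Whether the 2 libraries of a group are pools of separate mice is not stated in the labels. Markers of acinar (digestive enzyme) cells summed to 249411 and 263531 FPKM in KO_PBS, and from 44462 to 336899 FPKM over the WT libraries. How far the p-values cover the spread between separate pools is therefore not known.

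In the IL-6 family pathway, a cytokine binds its own receptor subunit, such as IL6RA for IL-6 or OSMR for oncostatin M, which pairs with the shared subunit gp130, encoded by Il6st. JAK kinases attached to the receptors then phosphorylate STAT3, which enters the nucleus and switches on target genes, among them Socs3, whose product shuts the receptors off again. The acute phase genes are the best known targets: they encode secreted proteins that liver and many inflamed tissues release during infection or injury.

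Smarcd3 was at 2.57 and 2.55 FPKM in the libraries labelled flox/flox and at 3.11 and 2.40 FPKM in those labelled BcBKO. Which exons were removed is not given in the sources used here, and FPKM over the whole gene may keep the rest, so this level does not check the label. Smarcd3 stood at 1.03 and 1.15 FPKM in CTR_PBS, at 0.75 and 1.09 FPKM in KO_PBS and at 1.28 and 1.21 FPKM in KO_REG3B-Fc. Islet Reg3b transcript was lower in both REG3B groups than in their controls, at 304 and 312 FPKM in KO_REG3B-Fc against 1227 and 1181 FPKM in KO_PBS, and at 10.4 and 9.98 FPKM in db_REG3B against 21.8 and 26.5 FPKM in db_GFP. Each library had between 10402 and 12553 genes with at least 1 FPKM, and the depth behind them is unknown. Beta cell markers summed to 347036 FPKM or more in every WT library and to 379221 FPKM or more in every other library, and all 8 were detected in each, as the tissue label says. Changes are given with limma's p-values, adjusted by Benjamini-Hochberg over all genes tested, as differences of log2(FPKM + 1) relative to the median gene of a comparison, since the median gene itself shifted by -0.44 between KO_PBS and CTR_PBS and by 0.53 between KO_REG3B-Fc and KO_PBS on the deposited scale.

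Levels of the 9 genes differed widely in the islets labelled WT. Il6ra and Stat3 were the most abundant, with a lowest, median and highest value of 16.1, 19.5 and 26.6 FPKM for Il6ra and of 11.9, 16.8 and 25.5 FPKM for Stat3. Il6st followed at 5.85, 6.82 and 8.03 FPKM, Lrg1 at 2.04, 4.10 and 5.21 FPKM and Socs3 at 1.99, 3.11 and 6.62 FPKM. The ranges of Il6ra and Stat3 overlapped, as did those of Lrg1 and Socs3, so these neighbours were not separated by their spread. The other 4 genes had medians under 1 FPKM: 0.64 FPKM for Lcn2, 0.62 FPKM for Osmr, 0.25 FPKM for Timp1 and 0 for Saa3. In WT islets Il6ra, Il6st and Stat3 thus stood above the acute phase genes in every library, and of the latter only Lrg1 had a median over 1 FPKM.

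**Figure D1:**
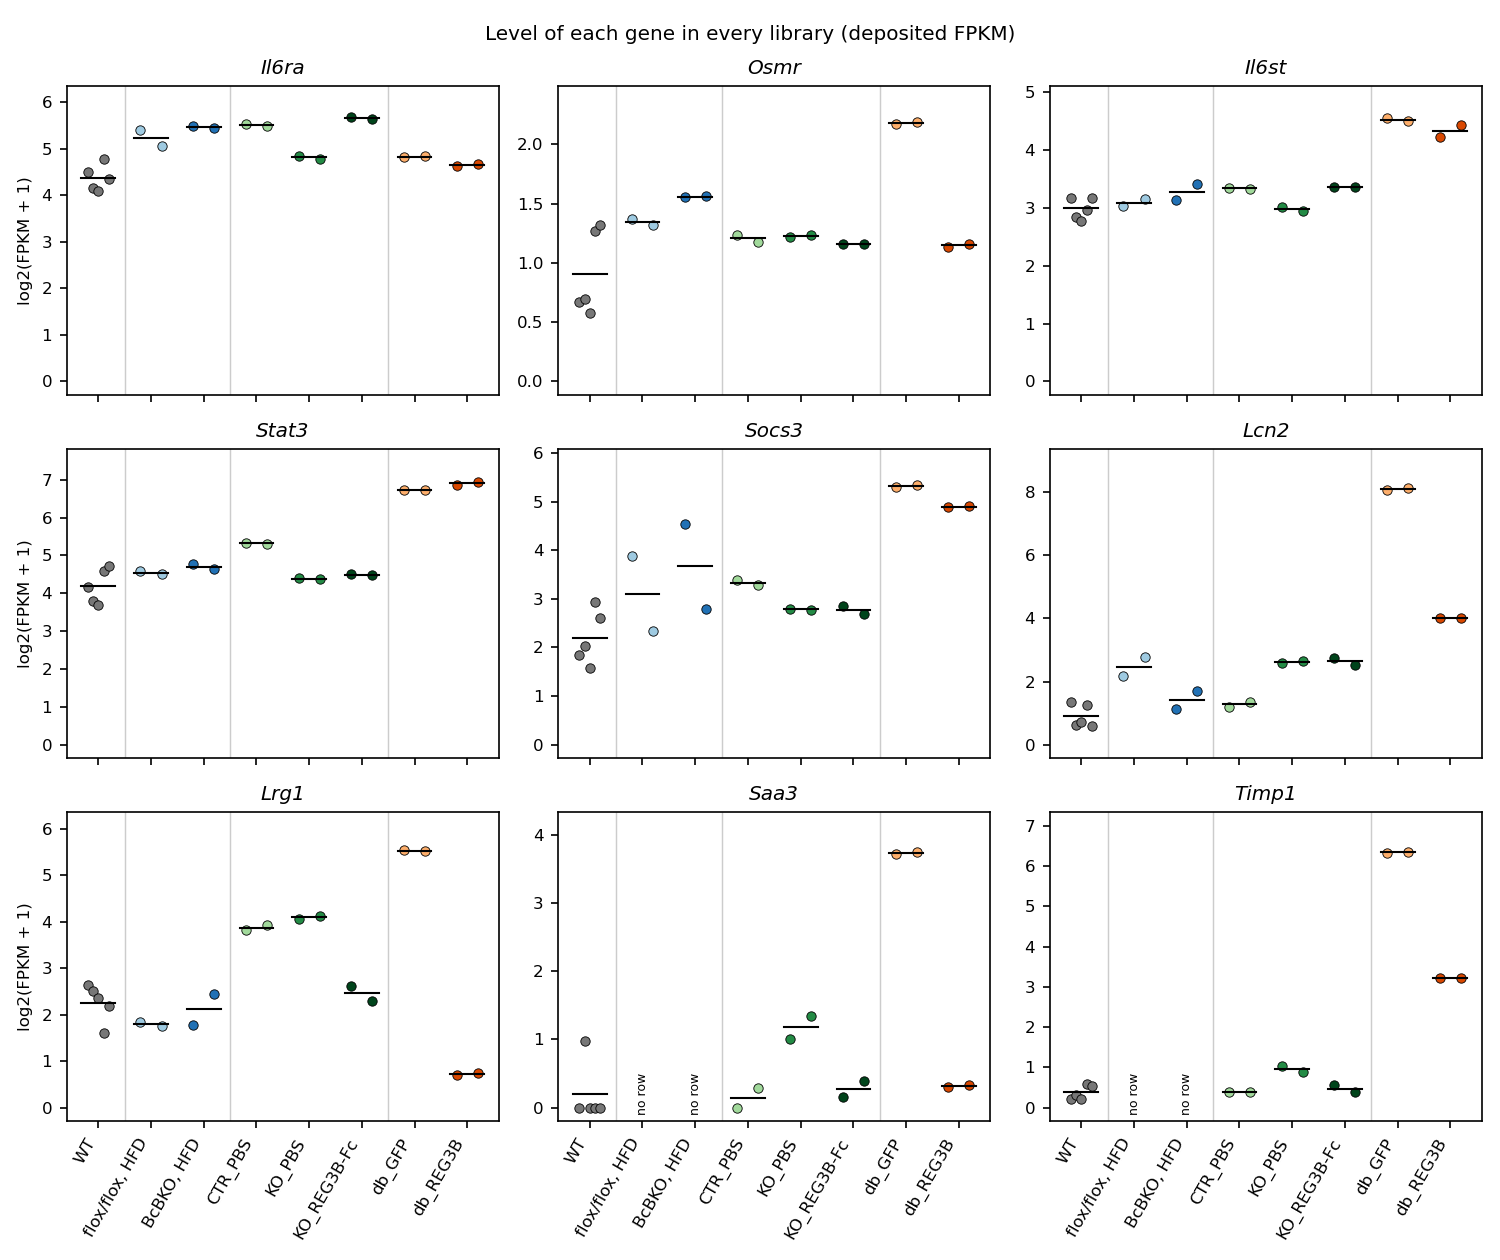
Each panel plots 1 gene as log2(FPKM + 1) on the vertical axis for every library, by group on the horizontal axis. Points are libraries, short lines are group means, grey lines separate tables that were normalized separately, and "no row" marks a gene missing from the HFD table. In db_GFP the points of Lcn2, Lrg1, Saa3 and Timp1 stand above those of all other groups, while Il6ra stays within 16.1 to 50.7 FPKM throughout.

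The db_GFP libraries had the highest level of Lcn2, Lrg1, Saa3, Timp1, Osmr, Il6st and Socs3 of any group, and db_REG3B had the highest level of Stat3. Il6ra was highest in KO_REG3B-Fc, at 50.7 and 48.8 FPKM. Stat3 ran from 11.9 FPKM in a WT library to 121 FPKM in a db_REG3B library. Il6st reached 22.4 and 21.5 FPKM in db_GFP and 17.6 and 20.6 FPKM in db_REG3B, and it did not pass 9.67 FPKM in any library of the other tables. The tables were normalized separately, so these orders across tables are a description and were not tested.

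In db islets the receptor subunit for oncostatin M fell with REG3B, Socs3 fell less, and Stat3 rose. Osmr was at 3.50 and 3.55 FPKM in db_GFP and at 1.19 and 1.24 FPKM in db_REG3B, and the groups did not overlap. Its level after median scaling was 2.79-fold lower, with a log2 change of -0.99 (95% confidence interval -1.18 to -0.80, adjusted p = 5.06e-05). Il6ra, the subunit specific to IL-6, was at 27.2 and 27.7 FPKM in db_GFP and at 23.9 and 24.5 FPKM in db_REG3B. Its log2 change of -0.12 (interval -0.23 to -0.01) did not pass the threshold of 0.05 (adjusted p = 0.0639), but did on the deposited scale, at -0.17 (adjusted p = 0.0236). Il6st, which encodes gp130, was at 22.4 and 21.5 FPKM in db_GFP and at 17.6 and 20.6 FPKM in db_REG3B. Its log2 change was -0.14 (interval -0.30 to 0.01, adjusted p = 0.119), and without replicate 2 of db_REG3B it was -0.23 (adjusted p = 0.0204). Both db_REG3B libraries lay below both db_GFP libraries for each of the 3 receptor genes, with the clear gap in Osmr.

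Stat3 transcript was at 105 and 104 FPKM in db_GFP and at 116 and 121 FPKM in db_REG3B. Both db_REG3B libraries were higher, a log2 change of 0.23 (interval 0.15 to 0.32, adjusted p = 0.00126). Its exons overlap those of Stat5a on the opposite strand, and the sources used here do not say whether counting used the strand, so reads from that overlap cannot be told apart. The same holds for Il6ra, whose exons overlap the antisense gene Gm42809. Socs3, the feedback inhibitor and a STAT3 target, was at 38.3 and 39.6 FPKM in db_GFP and at 28.8 and 29.0 FPKM in db_REG3B, without overlap. It fell by 0.36 on the log2 scale (interval -0.47 to -0.26, adjusted p = 0.000429). Of these 5 genes, 1 rose, 2 fell and 2 did not pass, where 45.3% of the 12507 genes tested passed (18.6% higher and 26.7% lower, or 12.2% and 30.8% on the deposited scale). The share among the 5 is therefore close to that of all genes. After scaling the groups did not overlap for any of these 5, nor for 73.3% of all genes. In the authors' deposited table the log2 fold changes were -1.44 for Osmr (adjusted p = 1.7e-11), 0.28 for Stat3 (adjusted p = 2.02e-09) and -0.31 for Socs3 (adjusted p = 0.000238), and Il6ra and Il6st did not pass.

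The 4 acute phase members were chosen from this contrast, so their values are given without a test. Lcn2, which encodes lipocalin 2, a protein that binds bacterial iron carriers, was at 268 and 281 FPKM in db_GFP and at 15.3 and 15.3 FPKM in db_REG3B, 17.3-fold lower after scaling. Lrg1, whose secreted product modifies TGF-beta signalling, was at 45.4 and 45.2 FPKM against 0.63 and 0.68 FPKM, 66.5-fold lower. Saa3, a serum amyloid A made mainly outside the liver, was at 12.2 and 12.4 FPKM against 0.23 and 0.26 FPKM, 48.5-fold lower. Timp1, an inhibitor of matrix metalloproteinases, was at 79.3 and 81.3 FPKM against 8.32 and 8.39 FPKM, 9.24-fold lower. The low group was not equally low in all 4: in db_REG3B, Lrg1 lay under its lowest WT library of 2.04 FPKM and Saa3 above the 4 WT libraries listed at 0 and below the other one at 0.96 FPKM, while Lcn2 and Timp1 were above their highest WT libraries of 1.53 and 0.51 FPKM, across tables normalized separately. In the authors' deposited table the log2 fold changes were -4.08 for Lcn2, -6.03 for Lrg1, -5.63 for Saa3 and -3.18 for Timp1. The pseudocount shrinks those of the low genes: with 1 FPKM added the changes were -4.77 for Lrg1 and -3.39 for Saa3, and with 0.1 FPKM added -5.86 and -5.13.

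**Figure D2:**
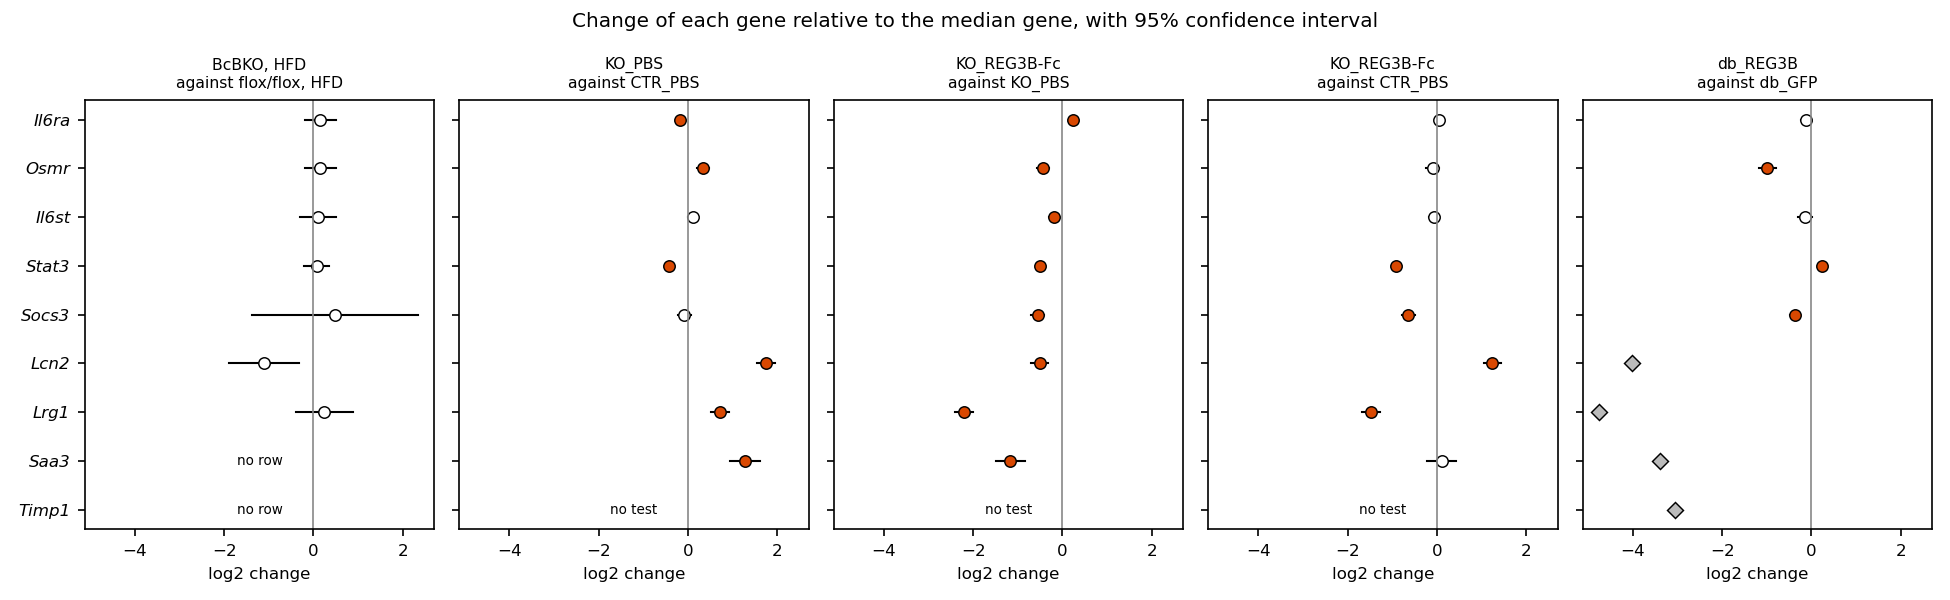
Each panel gives 1 comparison, with the genes on the vertical axis and the log2 change relative to the median gene on the horizontal axis. Circles carry 95% confidence intervals and are filled where the adjusted p was under 0.05; grey diamonds are the 4 genes chosen from the db contrast, shown without an interval, and "no test" marks Timp1 below the filter. In the KO_REG3B-Fc against KO_PBS panel Il6ra alone lies right of 0. The circles of Saa3 in the PBS panels stand for a gene that reached the filter only through KO_PBS.

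The stretches before the RefSeq start of 3 of the acute phase members are printed because these genes were chosen together for their fall with REG3B in db islets. They come from RefSeq promoter records on GRCm38.p6, cut where an annotated exon begins. That of Saa3 lies within the span of the gene, before a start 3939 bases inside it. Lrg1 (Entrez 76905) lies on chromosome 17 from 56119678 to 56121946, Saa3 (20210) on chromosome 7 from 46711998 to 46719615, Timp1 (21857) on chromosome X from 20870166 to 20874737 and Lcn2 (16819) on chromosome 2 from 32384637 to 32387739. In all 9 genes the 250 bases before the start were searched on both strands for the STAT motif TTCNNNGAA, the C/EBP motif TTGCNNAA, the AP-1 motif TGANTCA and the NF-kB motif. Capitals mark a match to one of them. The stretch before Lcn2 is covered by an annotated exon and is not printed.
Lrg1, upstream, chr17:56122002-56122196, minus strand: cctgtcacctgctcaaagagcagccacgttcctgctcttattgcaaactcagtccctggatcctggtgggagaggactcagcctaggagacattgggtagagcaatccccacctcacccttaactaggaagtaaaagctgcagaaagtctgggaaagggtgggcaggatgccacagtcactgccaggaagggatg
Saa3, upstream, chr7:46715701-46715926, minus strand: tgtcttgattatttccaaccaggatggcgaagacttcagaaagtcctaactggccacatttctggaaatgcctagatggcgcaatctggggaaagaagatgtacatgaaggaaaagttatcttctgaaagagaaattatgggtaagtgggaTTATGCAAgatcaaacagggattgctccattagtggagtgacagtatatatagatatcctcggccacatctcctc
Timp1, upstream, chrX:20869916-20870165, plus strand: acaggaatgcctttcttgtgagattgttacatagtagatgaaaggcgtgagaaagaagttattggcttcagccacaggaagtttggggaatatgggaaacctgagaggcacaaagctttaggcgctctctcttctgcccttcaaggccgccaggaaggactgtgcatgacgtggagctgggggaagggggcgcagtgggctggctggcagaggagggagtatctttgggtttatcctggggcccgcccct
The C/EBP letters were found in 2 of 9 genes, as TTATGCAA, which reads as the motif on the opposite strand, 99 to 92 bases before the start of Saa3 and as TTGCTCAA 216 to 209 bases before that of Lcn2, against 9.57% of 32841 RefSeq promoters. The STAT letters were found only in Socs3, as TTCTTAGAA 154 to 146 bases before its start, against 7.02% of promoters. None of the 9 windows held the AP-1 or the NF-kB letters, which occur in 6.75% and 3.9% of promoters. The RefSeq start used for Socs3 lies 970 bases inside the annotated gene, and which start is used in islets is not known from these files.

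Other genes of the pathway in db islets were taken from lists of known roles, and cytokine, acute phase and protease genes were mostly lower in db_REG3B. Some genes of these lists reached the filter only through the group where they are high, and they are left out of the counts and medians that follow, in the db comparison and in the others. Of 12 IL-6 family and related cytokines, 6 passed the filter, 2 of them only through db_GFP. Of the other 4, 3 fell, with a median log2 change of -0.91 against -0.01 over all genes. Il11, a gp130 cytokine of stromal cells, is 1 of those left out: it was at 7.71 and 8.01 FPKM in db_GFP and at 0.29 and 0.43 FPKM in db_REG3B. Il6 itself went from 5.23 and 5.29 FPKM to 1.18 and 1.77 FPKM (-1.31, adjusted p = 6.48e-05). Among 5 other receptors, 1 rose and 2 fell: Lifr, the LIF receptor, rose by 0.61 (adjusted p = 0.000229), and Il10ra and Il10rb fell by 0.54 and 0.45. The kinases and other STAT factors moved little, with 1 of 9 higher (Stat5b, 0.25), 1 lower (Jak2, -0.21) and a median of 0.00.

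The inhibitors of the pathway were mixed in db islets, and most acute phase genes were lower. Of 15 JAK-STAT inhibitors tested 3 rose and 4 fell. Socs1 fell by 0.70 (adjusted p = 0.00402), while the phosphatase genes Ptpn11 and Ptpn2 rose by 0.42 and 0.30. Of 19 other STAT3 targets 4 rose and 9 fell (median -0.17). Icam1, an adhesion molecule for leukocytes, was at 9.24 and 9.26 FPKM in db_GFP and at 1.40 and 1.33 FPKM in db_REG3B (-2.07, adjusted p = 7.15e-07). Il4ra and Tnfrsf12a fell by 1.05 and 0.87. Of 35 other acute phase genes 14 passed the filter, 4 of them only through db_GFP, and of the other 10, 8 fell and 2 rose (median -1.42). Serpina3n, a serine protease inhibitor, was at 35.5 and 36.1 FPKM in db_GFP and at 4.56 and 5.11 FPKM in db_REG3B (-2.61, adjusted p = 8.73e-08). The copper carrier gene Cp fell by 2.49, and the metalloreductase gene Steap4, left out of the count, was at 5.82 and 6.23 FPKM against 0.45 and 0.46 FPKM. The 2 that rose were the metallothioneins Mt1 (0.82) and Mt2 (0.92).

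Proteases that TIMP1 acts on and receptors linked to LRG1 were also lower in db_REG3B. Of 14 other TIMP and metalloproteinase genes 11 passed the filter, 2 of them only through db_GFP, and of the other 9, 8 fell (median -1.82). Mmp7 was at 101 and 98.2 FPKM in db_GFP and at 8.53 and 10.2 FPKM in db_REG3B (-3.23, adjusted p = 7.21e-08), and Mmp9 and Timp3 fell by 2.67 and 2.63. Of 7 receptors and partners of LCN2, LRG1 and SAA3 tested, 1 rose and 5 fell (median -0.28). Tgfbr2 (-1.87), Tgfb1 (-1.68) and Eng (-1.26), which belong to the TGF-beta pathway that LRG1 acts on, were the 3 that changed most.

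**Figure D3:**
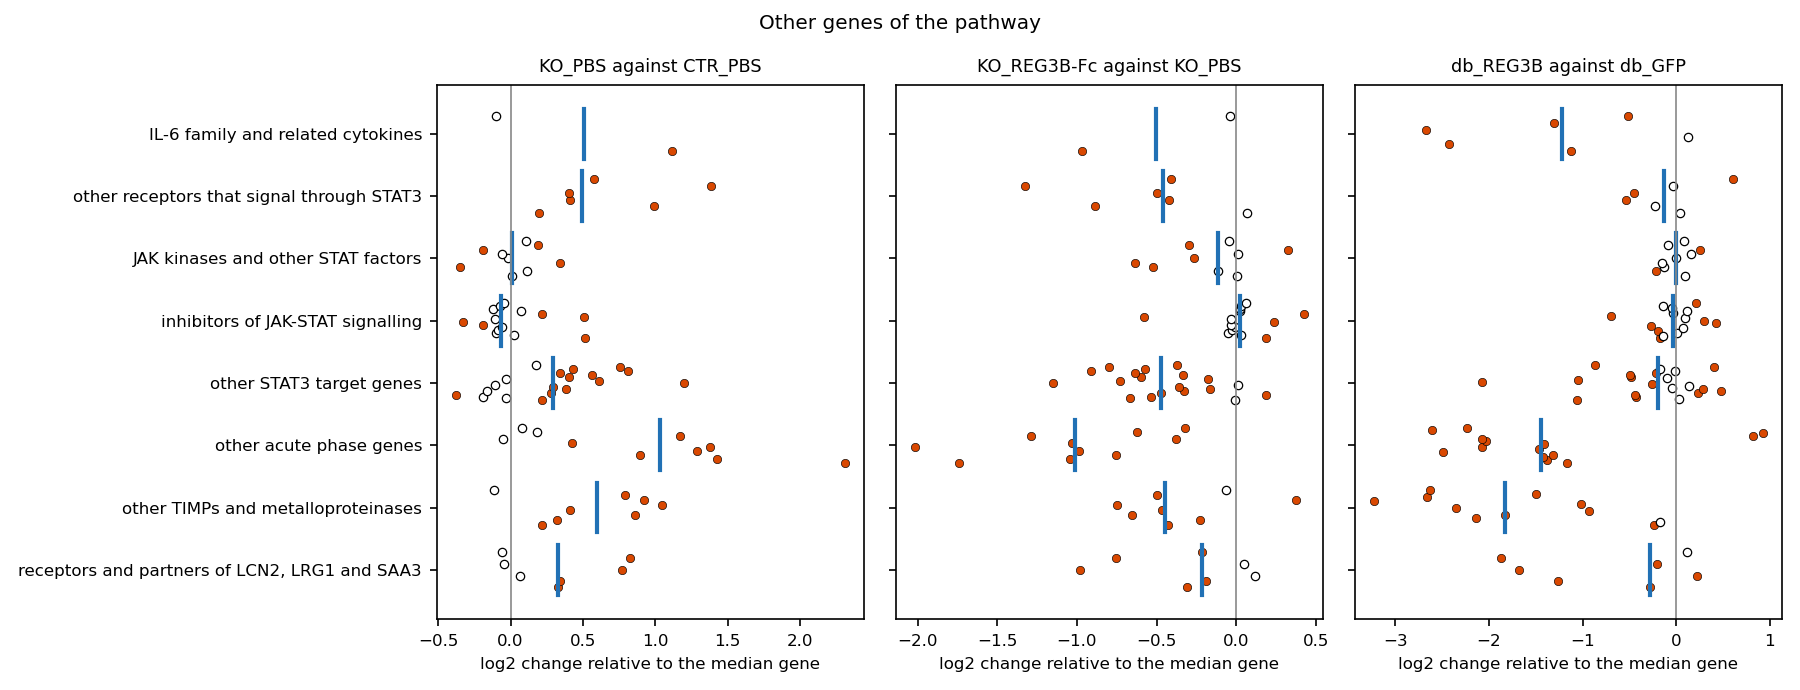
Each row is a list of pathway genes, with the 9 members left out, and each point is a tested gene at its log2 change relative to the median gene (horizontal axis); filled points passed at an adjusted p under 0.05 and blue bars are list medians. The acute phase and metalloproteinase lists lie at medians of 1.03 and 0.60 in KO_PBS against CTR_PBS, -1.01 and -0.45 in KO_REG3B-Fc against KO_PBS and -1.44 and -1.82 in db_REG3B against db_GFP, while the medians of kinases and of inhibitors stay between -0.11 and 0.03. The first 2 panels share the KO_PBS libraries, and the panels and these medians include genes that reached the filter only through 1 group. Without those genes the acute phase and metalloproteinase medians were 0.90 and 0.36, -0.99 and -0.43, and -1.42 and -1.82, in the same order.

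Markers of several cell types other than beta cells moved with these genes in db islets. Stellate cell and fibroblast markers summed to 1317 to 1336 FPKM in db_GFP and to 242 to 254 FPKM in db_REG3B, and 6 of 7 fell. Macrophage markers summed to 886 to 887 FPKM against 428 to 449 FPKM, duct markers to 1013 to 1031 FPKM against 690 to 719 FPKM and endothelial markers to 97.2 to 98.4 FPKM against 48.2 to 52.0 FPKM. All 8 macrophage, all 8 endothelial and 6 of 6 duct markers fell. The stellate and duct counts each leave out 1 marker that reached the filter only through db_GFP. Of 7 acinar markers 1 rose and 5 fell, with 1 more left out that reached the filter in only 1 group. B cell markers were near the floor, with sums of 1.82 to 2.09 FPKM in db_GFP and 2.59 to 2.68 FPKM in db_REG3B. Of the 7, 3 were listed at 0 in each db_GFP library and 1 in each db_REG3B library. Only 2 reached the filter, 1 of them only through db_REG3B, and the other did not pass (-0.21), so no direction is read for B cells. Alpha cell markers summed to 40541 to 41318 FPKM in db_GFP and to 21374 to 21631 FPKM in db_REG3B, while beta cell markers rose from 379221 to 384783 FPKM up to 698002 to 719090 FPKM, with 7 of 8 higher. Neutrophils, a known source of LCN2 and LRG1, were hardly represented: 6 of 12 markers have a row, their sum was 2.27 to 2.63 FPKM in db_GFP and 0.95 to 0.96 FPKM in db_REG3B, and between 1 and 3 of the 6 were listed at 0 in each library. The part of these cell types in the changes of the 9 genes was not tested. In bulk islets, fewer cells of a type and less RNA per cell cannot be told apart.

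**Figure D4:**
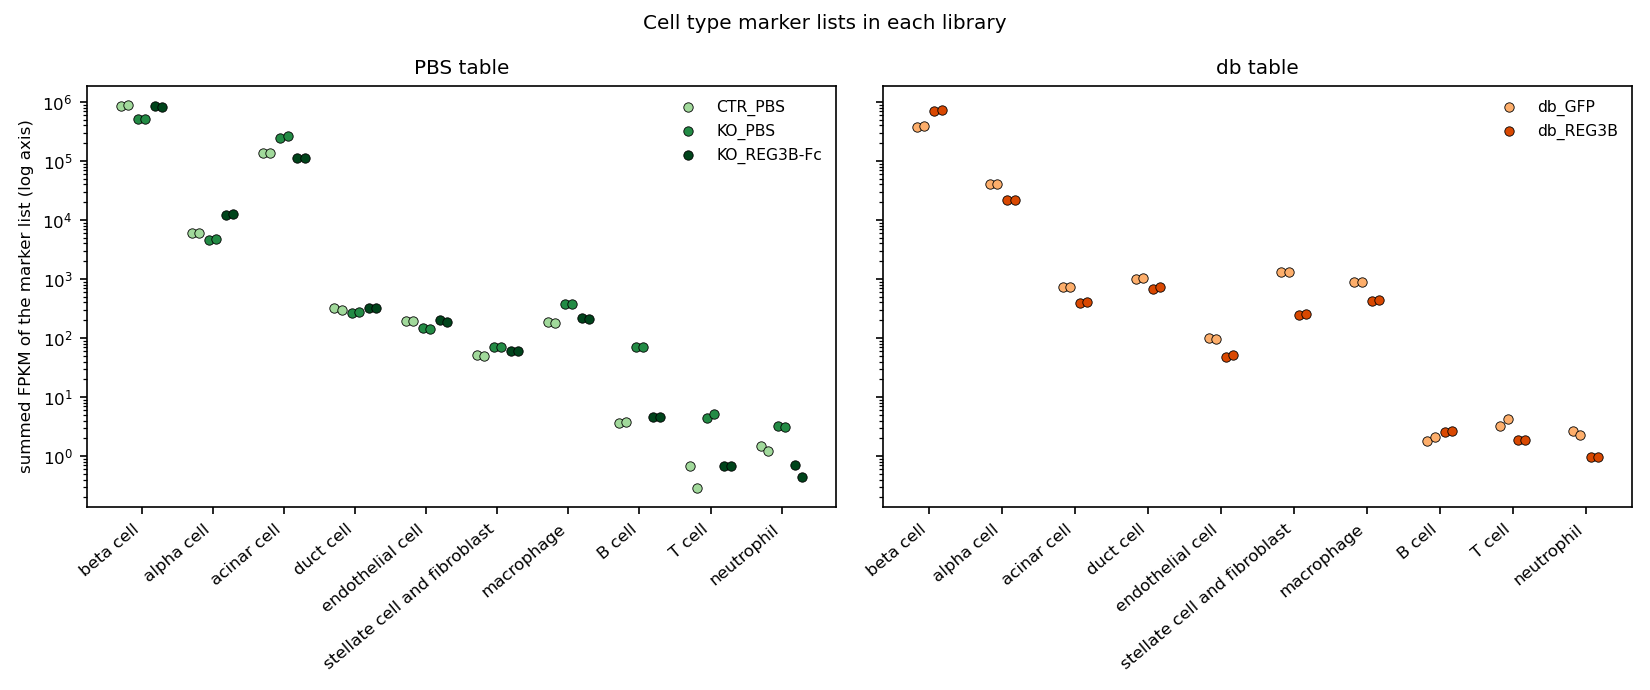
Summed FPKM of each marker list (vertical log axis) in every library of the PBS and db tables, by cell type on the horizontal axis and coloured by group; each point is 1 library. Stellate, macrophage, duct and endothelial sums are lower in both db_REG3B libraries than in both db_GFP libraries, and the acinar, macrophage and B cell sums are highest in KO_PBS.

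Between KO_PBS and CTR_PBS islets Lcn2 and Lrg1 rose and Stat3 fell. Lcn2 was at 1.30 and 1.57 FPKM in CTR_PBS and at 4.97 and 5.33 FPKM in KO_PBS, 5.19-fold higher after scaling. Its log2 change was 1.75 (interval 1.56 to 1.95, adjusted p = 1.35e-06), and the groups did not overlap. Lrg1 was at 13.1 and 14.3 FPKM in CTR_PBS and at 15.8 and 16.5 FPKM in KO_PBS, a log2 change of 0.72 (interval 0.52 to 0.93, adjusted p = 0.000291) that was 0.22 on the deposited scale (adjusted p = 0.0444). Saa3 was listed at 0 and at 0.22 FPKM in CTR_PBS and at 1.02 and 1.54 FPKM in KO_PBS, a log2 difference of 1.28. It reached the filter of 1 FPKM in 2 libraries only through KO_PBS, the group where it is high, so that it had to differ, and no test is read from it. All 3 were higher in both KO_PBS libraries on either scale. Timp1 was at 0.31 and 0.31 FPKM in CTR_PBS and at 1.05 and 0.85 FPKM in KO_PBS, below the filter and so without a test here. In the authors' deposited table the log2 fold changes were 2.33 for Lcn2, 0.72 for Lrg1, 3.95 for Saa3 and 2.11 for Timp1, each with an adjusted p under 0.05.

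Among the signalling genes Stat3 and Il6ra fell, Osmr rose, and Il6st and Socs3 did not pass. Stat3 was at 39.4 and 38.5 FPKM in CTR_PBS and at 20.0 and 19.7 FPKM in KO_PBS. It was 1.35-fold lower after scaling, a log2 change of -0.42 (interval -0.51 to -0.34, adjusted p = 4.22e-05), and -0.94 on the deposited scale. Il6ra was at 45.4 and 44.1 FPKM in CTR_PBS and at 27.7 and 26.7 FPKM in KO_PBS, a change of -0.18 (interval -0.26 to -0.09, adjusted p = 0.00492). Both genes were lower in both KO_PBS libraries. Osmr, at 1.36 and 1.26 FPKM against 1.33 and 1.35 FPKM, rose by 0.33 relative to the median gene (adjusted p = 0.00280) and by 0.02 on the deposited scale (adjusted p = 0.790), so its call rests on the scaling. Il6st, at 9.12 and 9.04 FPKM against 7.10 and 6.68 FPKM, did not pass (0.12, interval 0.01 to 0.23, adjusted p = 0.0703), and on the deposited scale its change was -0.35 (adjusted p = 0.000144). Socs3, at 9.43 and 8.78 FPKM against 5.96 and 5.83 FPKM, did not pass either (-0.08, interval -0.22 to 0.06, adjusted p = 0.307), and on the deposited scale its change was -0.55 (adjusted p = 4.68e-05). The direction for Il6st and the calls for Osmr and Socs3 thus depended on the scale.

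In all, and leaving out Saa3, 3 of 7 members rose, 2 fell and 2 did not pass, where 44.5% of 11789 genes passed, 25.0% higher and 19.6% lower. On the deposited scale 8.66% of genes were higher and 81.5% lower. After scaling 72.7% of all genes had no overlap between the groups, as had all of these 7. In the table the authors deposited, 5 of the 9 were higher and 2 lower at an adjusted p under 0.05, with Osmr among the higher ones at 0.53 and Il6ra and Stat3 the lower ones at -0.23 and -0.48.

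Of the other pathway genes in KO_PBS against CTR_PBS, acute phase genes were higher. Of 9 other acute phase genes 6 rose and 0 fell (median 0.90). With 1 more that passed the filter only through KO_PBS, 6 of 10 rose and 3 fell on the deposited scale. The other counts on the deposited scale in this paragraph and in the next ones on these lists are likewise over all genes past the filter. C3, the central complement component, was at 2.52 and 2.49 FPKM in CTR_PBS and at 11.7 and 11.5 FPKM in KO_PBS (2.31, adjusted p = 3.43e-08). C4b and Itih4 rose by 1.43 and 1.38, and both also rose on the deposited scale, by 1.03 and 0.87. All 5 other receptors rose after scaling (median 0.41), led by the IL-22 receptor gene Il22ra1 (1.39, adjusted p = 3.71e-06), while 2 rose and 1 fell on the deposited scale. Of 19 other STAT3 targets 12 rose and 1 fell (median 0.29), against 4 and 11 on the deposited scale; Icam1 (1.20), Myc (0.81) and Pim3 (0.75) changed most and rose on both scales. Of 9 kinases and STAT factors 2 rose and 2 fell, with Jak3 at -0.35 (0 and 8 on the deposited scale). Of 14 inhibitors 3 rose and 2 fell (0 and 12 on the deposited scale), with Cish at 0.52, Ptpn6 at 0.51 and Ptpn11 at -0.33. Of 6 other TIMP and metalloproteinase genes 5 rose (4 rose and 2 fell on the deposited scale), with Timp2 at 0.79, and of 7 partner genes 4 rose (2 and 4), with Tgfbr2 at 0.82 and Tgfb1 at 0.77.

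KO_REG3B-Fc islets were compared with KO_PBS islets, which are the same KO_PBS libraries as above. Lrg1 was at 15.8 and 16.5 FPKM in KO_PBS and at 5.13 and 3.94 FPKM in KO_REG3B-Fc, 5.52-fold lower after scaling, with a log2 change of -2.20 (SE 0.09, adjusted p = 4.95e-07) and -1.64 on the deposited scale. Saa3 was at 1.02 and 1.54 FPKM against 0.12 and 0.31 FPKM, a log2 difference of -1.17, again from a gene that reached the filter only through KO_PBS, so that no test is read from it. Lrg1 fell on either scale, and neither gene overlapped between the groups. Lcn2 was at 4.97 and 5.33 FPKM in KO_PBS and at 5.74 and 4.78 FPKM in KO_REG3B-Fc. Its deposited FPKM overlapped between the groups, and its change was -0.51 relative to the median gene (interval -0.71 to -0.32, adjusted p = 0.00157) but 0.02 on the deposited scale (adjusted p = 0.813). Timp1 was at 1.05 and 0.85 FPKM against 0.47 and 0.31 FPKM, without a test. The authors' deposited table gave log2 fold changes of -2.44 for Lrg1 (adjusted p = 5.05e-52), -2.83 for Saa3, -1.89 for Timp1 (adjusted p = 0.0422) and -0.57 for Lcn2 (adjusted p = 0.118).

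Among the signalling genes Il6ra rose from 27.7 and 26.7 FPKM in KO_PBS to 50.7 and 48.8 FPKM in KO_REG3B-Fc, a log2 change of 0.23 (interval 0.15 to 0.32, adjusted p = 0.00132) and of 0.85 on the deposited scale. Stat3 was at 20.0 and 19.7 FPKM in KO_PBS and at 21.6 and 21.2 FPKM in KO_REG3B-Fc. Relative to the median gene it fell by 0.50 (interval -0.59 to -0.42, adjusted p = 1.64e-05), while on the deposited scale its change was 0.10 (adjusted p = 0.0476), so the direction depended on the scale. Socs3, at 5.96 and 5.83 FPKM against 6.27 and 5.43 FPKM, fell by 0.56 after scaling (adjusted p = 0.000150) and was at -0.01 on the deposited scale (adjusted p = 0.870). Osmr, at 1.33 and 1.35 FPKM against 1.24 and 1.23 FPKM, fell by 0.43 (adjusted p = 0.000718) and was at -0.07 on the deposited scale (adjusted p = 0.351). Il6st, at 7.10 and 6.68 FPKM against 9.26 and 9.29 FPKM, was at -0.18 after scaling (adjusted p = 0.0145) and at 0.38 on the deposited scale (adjusted p = 7.13e-05). Its call after scaling was lost without replicate 1 of KO_PBS (adjusted p = 0.0675) or of KO_REG3B-Fc (adjusted p = 0.0846). Leaving out Saa3, 1 of 7 members rose and 6 fell, where 44.9% of genes passed, 20.0% higher and 24.8% lower. On the deposited scale 86.2% of genes were higher and 6.97% lower, and the directions of Lcn2, Il6st and Stat3 were the opposite. After scaling 72.5% of all genes had no overlap between the groups, as had all of these 7. Lrg1 and Il6ra kept both direction and call on the 2 scales.

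The other pathway genes in KO_REG3B-Fc against KO_PBS were mostly lower after scaling. All 9 other acute phase genes fell (median -0.99), against 7 lower and 1 higher on the deposited scale. Itih4 was at 19.5 and 19.2 FPKM in KO_PBS and at 6.63 and 6.43 FPKM in KO_REG3B-Fc (-2.02, adjusted p = 2.08e-08). C3 and C4b fell by 1.74 and 1.04, and the 3 genes also fell on the deposited scale, by 1.43, 1.18 and 0.56. Of 5 receptors 4 fell (median -0.42; 2 rose and 2 fell on the deposited scale), with Il22ra1 at -1.33 (adjusted p = 4.96e-06). Of 19 STAT3 targets 1 rose and 16 fell (median -0.47), against 8 and 5 on the deposited scale; Icam1 (-1.15), Myc (-0.91) and Pim3 (-0.80) fell on both. Of 9 kinases and STAT factors 1 rose and 4 fell (7 and 0 on the deposited scale), and of 14 inhibitors 3 rose and 1 fell (13 and 0), with Ptpn6 at -0.58 and Socs2 at 0.42. Of 7 TIMP and metalloproteinase genes 1 rose and 5 fell (4 and 2 on the deposited scale), and of 7 partner genes 5 fell (5 rose and 2 fell on that scale), with Tgfb1 at -0.98.

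KO_REG3B-Fc was also set against CTR_PBS, with libraries shared with both comparisons above, and here the scale mattered less, with a shift of the median gene of 0.09. Lcn2, at 1.30 and 1.57 FPKM in CTR_PBS and at 5.74 and 4.78 FPKM in KO_REG3B-Fc, was 3.41-fold higher (1.24, SE 0.09, adjusted p = 9.25e-05). Lrg1, at 13.1 and 14.3 FPKM against 5.13 and 3.94 FPKM, was 3.24-fold lower (-1.48, interval -1.68 to -1.27, adjusted p = 4.96e-05). These 2 acute phase genes thus differed from the control in opposite directions, each without overlap. Stat3, at 39.4 and 38.5 FPKM against 21.6 and 21.2 FPKM, was 1.95-fold lower (-0.93, interval -1.01 to -0.84, adjusted p = 5.51e-06). Socs3, at 9.43 and 8.78 FPKM against 6.27 and 5.43 FPKM, was 1.67-fold lower (-0.64, interval -0.78 to -0.50, adjusted p = 0.000568). Both signalling genes were lower in both KO_REG3B-Fc libraries on either scale.

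The other 4 tested members did not pass against CTR_PBS: Saa3 at 0.11 (interval -0.22 to 0.43), Il6ra at 0.05 (-0.03 to 0.14), Osmr at -0.10 (-0.24 to 0.05) and Il6st at -0.06 (-0.17 to 0.05). Il6ra passed on the deposited scale, at 0.15 (adjusted p = 0.0468). With 1 gene higher and 3 lower, 4 of 8 members passed, where 10.7% of genes did (5.59% higher and 5.10% lower, or 16.8% and 2.87% on the deposited scale). After scaling the groups overlapped for 2 of the 9 members and did not for 7, nor for 57.7% of all genes. Timp1 was at 0.31 and 0.31 FPKM against 0.47 and 0.31 FPKM. Of the other pathway genes, Jak3 went from 6.08 and 5.44 FPKM to 2.97 and 2.70 FPKM (-0.87, adjusted p = 0.000174). The inhibitor gene Cish, a target of STAT5, went from 5.11 and 4.68 FPKM to 9.99 and 8.67 FPKM (0.71, adjusted p = 0.000429), and Socs2 rose by 0.64. Of 9 kinases and STAT factors 3 fell (1 rose and 3 fell on the deposited scale), and of 14 inhibitors 2 rose and 1 fell (2 and 0). Of 19 other STAT3 targets 1 rose and 6 fell (median -0.14), against 3 and 4 on the deposited scale, led by Bcl6 (-0.73), Bcl3 (-0.69) and Cebpd (-0.49). Of 10 acute phase genes 3 rose and 4 fell on either scale, with Itih4 at -0.64, Mt1 at -0.61 and C3 at 0.57. Mmp7, which reached the filter only through KO_REG3B-Fc, was at 0.09 and 0.24 FPKM against 2.25 and 2.06 FPKM.

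Markers of beta cells and of other cells moved in the PBS table too. Acinar markers, from the digestive enzyme cells around the islets, summed to 134043 to 136695 FPKM in CTR_PBS, 249411 to 263531 FPKM in KO_PBS and 110725 to 112046 FPKM in KO_REG3B-Fc. Macrophage markers summed to 180 to 186, 378 to 380 and 209 to 218 FPKM in the same order, and B cell markers to 3.68 to 3.83, 69.9 to 70.3 and 4.51 to 4.61 FPKM. All 8 acinar and all 8 macrophage markers rose in KO_PBS against CTR_PBS and fell in KO_REG3B-Fc against KO_PBS, and 6 of 7 B cell markers reached the filter only through KO_PBS. On the deposited scale 7 macrophage markers rose in the first comparison, and 5 fell and 1 rose in the second. Beta cell markers summed to 846289 to 881716, 512189 to 520930 and 828264 to 841532 FPKM: 6 of 8 fell in KO_PBS against CTR_PBS (8 of 8 on the deposited scale), and 5 of 8 rose in KO_REG3B-Fc against KO_PBS (8 of 8). Alpha cell markers summed to 5938 to 6059, 4570 to 4802 and 12361 to 12868 FPKM, and 5 of 6 were higher in KO_REG3B-Fc than in either other group. Stellate markers summed to 50.2 to 52.2, 69.3 to 70.4 and 59.8 to 60.9 FPKM, and neutrophil markers to 1.24 to 1.48, 3.09 to 3.21 and 0.44 to 0.71 FPKM. Of the 9 neutrophil markers with a row, 1 reached the filter, S100a8, and only through KO_PBS, so no test is read from it. Its log2 difference was 1.17 in KO_PBS against CTR_PBS and -1.29 in KO_REG3B-Fc against KO_PBS. The granule genes Camp and Ngp were listed at 0 in all CTR_PBS and KO_REG3B-Fc libraries and were at 0.27 FPKM or less in KO_PBS. The part of these cells in the changes of the members was not tested.

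On the high-fat diet none of the 7 members with a row passed between islets labelled BcBKO and flox/flox, where 0.00865% of 11560 genes, a single gene, passed. By unadjusted p, 1 member and 299 genes (2.59%) were under 0.05. That member was Lcn2, at 3.47 and 5.88 FPKM in flox/flox and at 1.21 and 2.23 FPKM in BcBKO, with a log2 change of -1.12 (interval -1.90 to -0.34, adjusted p = 0.99967). Both BcBKO libraries were below both flox/flox libraries, as they were for 13.2% of all genes, and 3 of the 7 members had no overlap in either direction, as had 27.3% of all genes. In the authors' deposited table its log2 fold change was -1.52 with an unadjusted p of 0.00635 and an adjusted p of 0.99989. Lrg1 was at 2.61 and 2.39 FPKM in flox/flox and at 2.43 and 4.46 FPKM in BcBKO, overlapping between the groups (0.24, interval -0.40 to 0.88).

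Il6ra was at 41.6 and 32.2 FPKM in flox/flox and at 44.2 and 42.6 FPKM in BcBKO (0.15, interval -0.20 to 0.50), and Stat3 at 23.1 and 21.6 FPKM against 26.2 and 23.8 FPKM (0.07, interval -0.21 to 0.35). Il6st and Osmr had changes of 0.11 (interval -0.29 to 0.51) and 0.16 (interval -0.18 to 0.50). Socs3 was the least even of the 7: it was at 13.8 and 4.03 FPKM in flox/flox and at 22.4 and 5.95 FPKM in BcBKO, with replicate 1 high in each group. Its log2 change of 0.49 had an interval of -1.37 to 2.35, and it ranged from -0.37 to 1.35 when each library was left out in turn. None of the 74 genes tested on the 8 pathway lists passed, and 4 of them had an unadjusted p under 0.05. Cntfr (0.55) and Eng (0.40) had the smallest p of their lists. None of the 55 cell type markers tested passed, and 3 had an unadjusted p under 0.05.

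For the 3 members whose log2(FPKM + 1), centred within each table, spanned at least 2 over the 19 libraries and that passed the filter in all 4 tables, the genes of most similar pattern were found among 10259 candidates. The measure was the root mean square difference of those centred values, which mixes differences between groups with differences between replicates. Nearest to Lcn2 were Fbln2 (0.489), Cp (0.562) and Scara3 (0.60), and nearest to Lrg1 were Fbln2 (0.656), Igfbp4 (0.692) and Serpina3n (0.705). The db libraries entered the measure, so neighbours of Lcn2 and Lrg1 had to share their large step there, and their values are a description. Fbln2, a matrix protein gene, had a mean of 37.8 FPKM in db_GFP and 3.28 FPKM in db_REG3B, and Igfbp4 had means of 25.4 and 3.19 FPKM. The PBS libraries entered the measure too. Fbln2 was at 0.89 and 0.92 FPKM in CTR_PBS and at 3.39 and 3.47 FPKM in KO_PBS. Of these 2 groups only KO_PBS reached 1 FPKM, so no test is read from Fbln2. Serpina3n did not pass in KO_PBS against CTR_PBS (0.18, adjusted p = 0.119). Nearest to Socs3, and closer than any of these, were Phlda1 (0.197), Ier3 (0.221) and Bag3 (0.226). On the high-fat diet Phlda1 was at 13.1 and 3.19 FPKM in flox/flox and at 16.4 and 4.92 FPKM in BcBKO. Ier3 was at 12.8 and 3.96 FPKM and at 17.4 and 4.61 FPKM, the same split between replicate 1 and replicate 2 as in Socs3. These libraries entered the measure as well, so the shared split comes with the choice of neighbours and is a description. Saa3 and Timp1 did not pass the filter in every table, and the spans of Il6ra (0.32), Osmr (1.01), Il6st (0.51) and Stat3 (0.94) were below 2.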

How the data were processed

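The authors deposited FPKM for 19 libraries in 4 tables, with TPM for the HFD libraries, and for 4 comparisons a log2 fold change with a p-value for each gene. Per the file headers, DESeq2 made those of the db and PBS tables, and no tool is named for HFD. The build is GRCm38.p6 per the submitters' processing notes, and the aligner is not given in the sources used here. Read counts were not analysed here, so depth is unknown and no counting interval was computed. Of the WT lines 275 lack a value, and 50 identifiers repeat. Columns were matched to the labels by name, and 0 value columns were without a sample.

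Each library was divided by its median ratio to the geometric mean library of its table (median scaling). A gene was tested where 2 or more libraries of the table reached 1 FPKM. In each table a single linear model over every group was fitted to log2(FPKM + 1) with limma 3.58.1 (R 4.3.3), whose empirical Bayes step used a mean trend. Two-sided p-values were adjusted by Benjamini-Hochberg over the tested genes, with 0.05 as threshold. The fit was tested on simulated data. The PBS fit had 3 residual degrees of freedom, and the HFD and db fits had 2 each. Alternatives were the deposited scale, a pseudocount of 0.1, no filter, TPM, a replicate block, only the groups compared and each library left out.

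The members, pathway lists and marker lists were chosen with earlier results of these data known. Beside the 9 members, Smarcd3 and Reg3b, the rule named up to 3 passing genes a list and comparison that reached 2 FPKM in the group where they were higher, by largest change, or 1 by smallest p where none passed, and the 3 genes nearest to a member that spans at least 2. Mt1, Mt2, Camp, Ngp and S100a8, and which of the genes the rule allows are printed, were chosen after their values were seen. The 4 members chosen from the db contrast were not tested in it. Genes were matched to RefSeq by Entrez identifier or symbol, and all 9 members matched. Some genes that the rule names are not reported here.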

Additional observations from a re-analysis of the deposited data

Results flagged for a closer look

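Saa3 in the WT islets was set apart by 1 library. Replicate 2 was at 0.96 FPKM while the other 4 were listed at 0, so the gap between the highest library and its nearest neighbour made up the whole range of the group (a ratio of 1). With 4 libraries listed at 0 any other value gives that ratio, so it is a description and not a test. The other 8 members had no such library among the WT samples. The other groups have 2 libraries each and were not examined in this way.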

How the results depend on the processing

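On the deposited scale, without median scaling, the count of genes past the threshold was 10624 instead of 5251 for KO_PBS against CTR_PBS, 10979 instead of 5288 for KO_REG3B-Fc against KO_PBS and 2315 instead of 1260 for KO_REG3B-Fc against CTR_PBS. Members past the threshold, Saa3 included, then numbered 5 instead of 8 in the second of these. Directions that reversed on that scale were those of Il6st in all 3 comparisons (-0.35, 0.38 and 0.028) and of Lcn2 (0.022) and Stat3 (0.10) in KO_REG3B-Fc against KO_PBS. Without the filter the count was 728 for KO_REG3B-Fc against CTR_PBS. The cause of these differences was not tested.

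When each library was left out in turn, the count of genes for KO_REG3B-Fc against CTR_PBS ran from 466 to 1463, with 466 and 480 without CTR_PBS replicates 1 and 2 and 591 and 526 without KO_REG3B-Fc replicates 1 and 2. Saa3 leaves the test in the PBS table without either KO_PBS library, as it reached the filter only through them. Where it stays in the test it is included in the counts of members that follow, although no test is read from it. Members past the threshold ran from 5 to 6, 6 to 8 and 4 to 4 in the PBS comparisons, from 3 to 4 in db and from 0 to 0 on HFD. On HFD 1 gene passed, 0 to 1 when a library was left out, 0 without the filter and 0 by TPM. There Socs3 changed sign without flox/flox replicate 2 (-0.26) or BcBKO replicate 1 (-0.37), within a range of -0.37 to 1.35, and Lrg1 (-0.10 to 0.59) and Il6st (-0.041 to 0.26) did so without BcBKO replicate 2. Saa3 in KO_REG3B-Fc against CTR_PBS was at -0.025 without CTR_PBS replicate 1 and ranged up to 0.23. Where a group was left with 1 library, that library was assumed to vary like the others. With a window of 150 bases the STAT letters were in 0 of the 9 promoters instead of 1.

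Groups share replicate numbers, but the labels do not say that a number pairs libraries. With replicate number as a block, 2 genes passed on HFD instead of 1 and 0 members, and 6, 8, 4 and 3 members passed in the other comparisons, as without it. The 6 and the 8 include Saa3, from which no test is read. Replicate differences correlated at 0.67 on HFD and between -0.05 and 0.05 elsewhere, with 2 pairs each.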
